A study of Schmidtea mediterranea with 12 samples.

Results

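Transcripts of 4 regulatory genes, nkx2.2, gli-1, RREB2 and med21, were followed across laser-captured gut and non-gut tissue of the planarian Schmidtea mediterranea. They were chosen by transcript identifier from the 28069 transcripts of the deposited count table: dd_Smed_v6_2716_0_1 (nkx2.2, 1931 bases), dd_Smed_v6_7470_0_1 (gli-1, 3643 bases), dd_Smed_v6_10103_0_1 (RREB2, 1789 bases) and dd_Smed_v6_2670_0_1 (med21, 1395 bases). All 4 passed the filter on low counts, as did 13136 transcripts in all, and each of the 4 exceeded the filter level of 1 CPM (read counts scaled to a common library size) in all 12 libraries. Their genomic positions and sequences were not analysed here. The study had already listed all 4 as intestine-enriched from these same libraries, so on its TMM scale their higher level in gut was known beforehand.

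The libraries came from 4 uninjured adults of the asexual clonal line CIW4, starved for 7 days, 6 to 9 mm long. From the sections of each animal, medial intestine, lateral intestine (both from the anterior gut) and non-intestinal tissue were captured separately, so that the same replicate number marks the same animal in the 3 tissues. The animals are members of 1 clonal line, received no RNA interference and were not regenerating, so the data describe resting tissue only. The input was 5 ng of RNA per library, and the protocol reads the 3′ end of polyadenylated messages, with no molecular identifiers named in the sources used here. The libraries held 20227187 to 33296270 counts.

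The planarian gut is a branched epithelium with a medial and a lateral domain, made of absorptive phagocytes, secretory goblet cells and basal cells, and it is renewed by pluripotent stem cells called neoblasts. Nkx2.2 proteins are homeodomain transcription factors, known in vertebrates from the endocrine pancreas, the gut and the ventral spinal cord. Gli proteins are zinc finger factors that carry the response to Hedgehog signals, RREB proteins are zinc finger factors named for binding Ras-responsive elements, and Med21 is a subunit of Mediator, the complex that links transcription factors to RNA polymerase II. The study silenced these genes in other animals: it tied gli-1 to the making of goblet cells during regeneration, RREB2 to their maintenance and med21 to goblet cells among wider defects, whereas nkx2.2 had been linked to neoblast proliferation and blastema growth. In its uninjured animals, gli-1 knockdown left hardly any lateral goblet cells but affected medial ones far less. RREB2 knockdown there reduced both, with some lateral ones left. A pair of the names needs care: the RREB2 transcript matches human RREB1 and has a planarian paralog with which reads could be shared, and the med21 transcript matches Mediator subunit 21 in the study's naming but another human gene, WRB, in its reciprocal comparison.

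Marker transcripts were summed in each library. The goblet, basal and phagocyte markers come from the study, which had found them intestine-enriched in these same libraries. Their high level in gut is therefore no independent check of the tissue labels. The markers of other cell types were picked for this comparison. Summed over the 15 goblet markers, the level was 22169 to 32600 CPM in medial, 36843 to 41502 CPM in lateral and 475 to 762 CPM in non-intestine libraries, after scaling by trimmed mean of M values (TMM). The 3 phagocyte markers summed to 6610 to 10011 CPM in intestine and 110 to 159 CPM in non-intestine, and the 9 basal markers to 17748 to 31617 CPM and 779 to 1096 CPM. Markers of other cell types ran the other way or overlapped: the 4 neoblast markers gave 134 to 285 CPM in intestine against 358 to 435 CPM, the 2 neuronal markers 2.66 to 13.3 CPM against 50.8 to 68.0 CPM, the 4 cilia markers 0.949 to 11.2 CPM against 41.5 to 73.3 CPM, and the 2 muscle markers 126 to 344 CPM against 217 to 395 CPM. The neuronal sum was mostly PCSK2 (0.802 to 7.75 CPM in intestine against 49.6 to 66.5 CPM). GAD1, the other neuronal marker, overlapped (0.593 to 5.54 CPM against 1.11 to 3.55 CPM). Its log2 difference was 0.55 in medial and 0.37 in lateral intestine, not called. TEKT2 made up the largest part of the cilia sum outside the gut (25.6 to 49.2 CPM, against 0.298 to 8.56 CPM in intestine). The cilia markers IFT140 and IFT122 and the muscle marker CNN1 passed the filter on low counts only through the non-intestine libraries. Their levels are therefore a description with no test. IFT122 and the neoblast marker RRM1 overlapped between gut and non-gut, and the other cilia and neoblast markers did not. No marker of these lists was at 0 in all 4 libraries of a tissue. The part of these cell types in the levels of the 4 regulators was not tested.

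All 4 regulators were higher in both intestinal domains than outside the gut in TMM-scaled CPM, with no overlap between the 8 intestinal and the 4 non-intestine libraries, a pattern met by 14.9% of all transcripts tested. The size of the difference ran from 45.8-fold for nkx2.2 to 1.91-fold for med21, both in lateral intestine. In deposited TPM, the authors' transcript abundances, which also divide by transcript length, nkx2.2 and gli-1 still did not overlap, RREB2 and med21 did, and 6.62% of all transcripts met the pattern. Fewer cells of an expressing type and less RNA per cell cannot be told apart in captured bulk tissue.

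**Figure D1:**
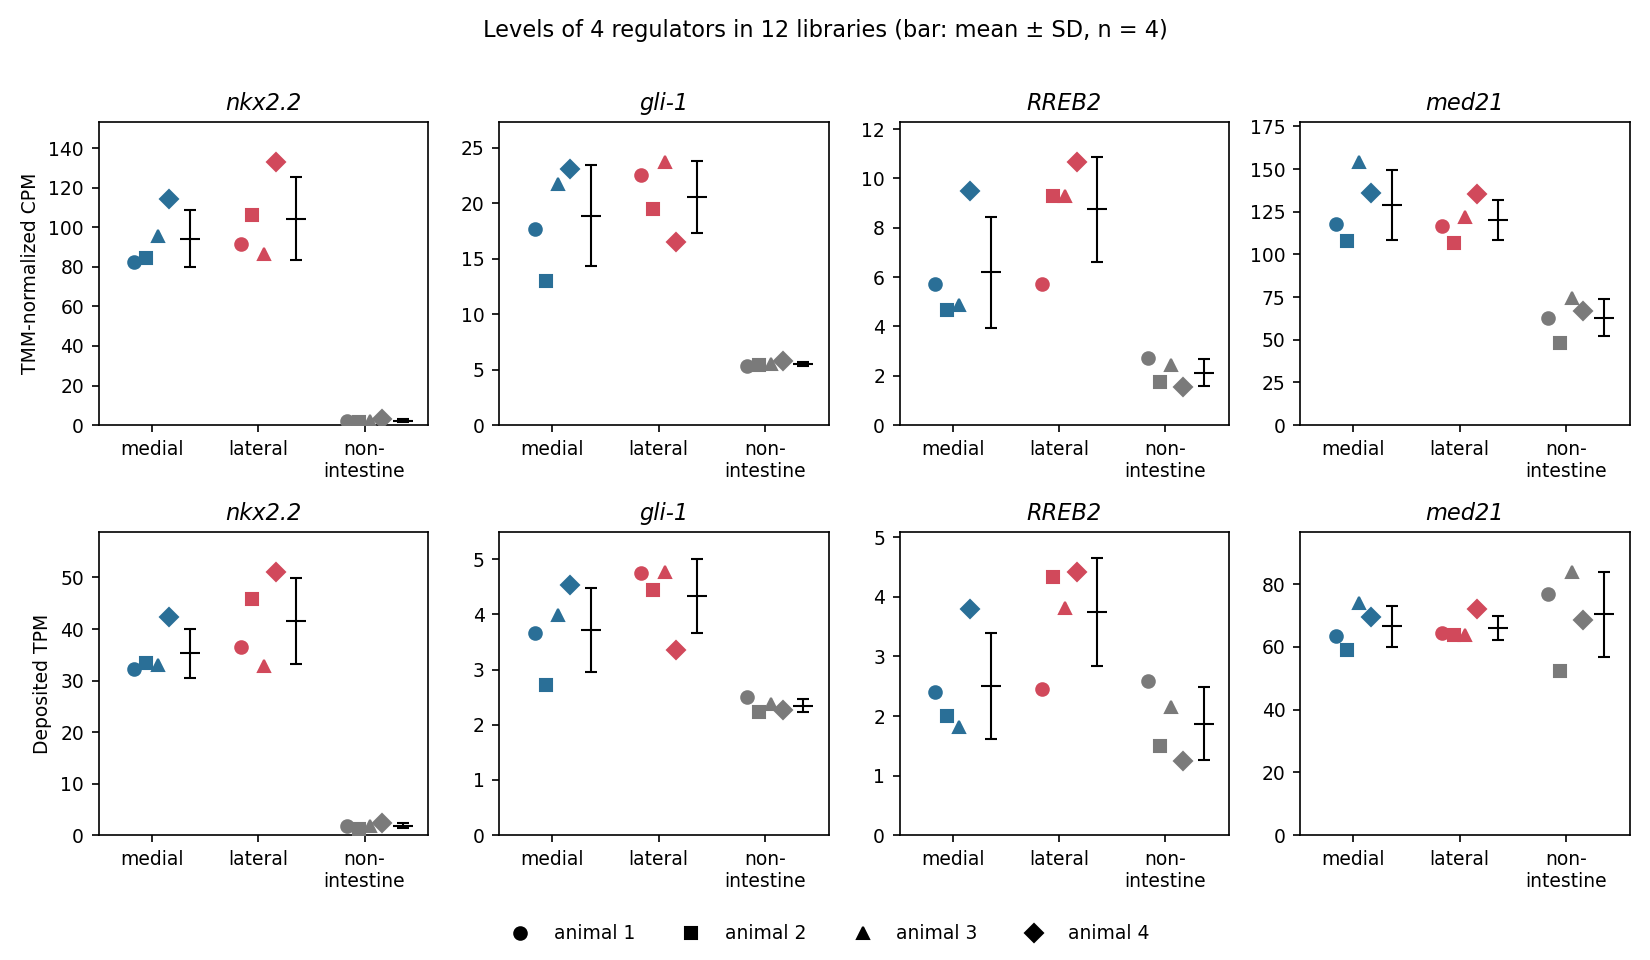
Level of each regulator in the 12 libraries, in TMM-scaled CPM (top row) and deposited TPM (bottom row). Symbols mark the 4 animals and bars the mean ± SD (n = 4). The intestinal points lie above every non-intestine point for all 4 genes in the top row, and for nkx2.2 and gli-1 only in the bottom row.

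nkx2.2 showed the widest separation. Its level in animals 1 to 4 was 82.6, 84.7, 95.4 and 114 TMM-scaled CPM in medial intestine and 91.5, 106, 86.4 and 133 CPM in lateral intestine. Outside the gut it was 2.12, 1.52, 2.25 and 3.24 CPM. The lowest intestinal library stood 25.5 times above the highest non-intestine library, and animal 4 was the highest of its group in each of the 3 tissues. Raw counts of 63 to 96 in the non-intestine libraries show that the transcript was detected there.

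The fitted log2 difference of nkx2.2 was 5.37 for medial intestine (SE 0.27, 95% interval 4.79 to 5.95, 41.4-fold, edgeR quasi-likelihood adjusted p = 5.27e-09) and 5.52 for lateral intestine (SE 0.27, interval 4.93 to 6.10, 45.8-fold, edgeR adjusted p = 4.24e-09). Within single animals the medial tissue was 35.4 to 55.8 times and the lateral tissue 38.4 to 69.9 times the level of the non-intestinal tissue. The fold exceeded that of 98.2% of tested transcripts in medial and 98.5% in lateral intestine. The animal-to-animal variation of 15.4% and 20.1% within the intestinal groups was larger than the 2.34% and 2.05% that counting alone would give.

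gli-1 was present in every library at a lower level. In TMM-scaled CPM its medial values were 17.7, 13.0, 21.7 and 23.1, its lateral values 22.5, 19.5, 23.7 and 16.5, and its non-intestine values 5.34, 5.38, 5.47 and 5.76. The non-intestine libraries were nearly identical, with a coefficient of variation of 3.47% where counting error alone would give about 7.50%, and the lowest intestinal library, the medial one of animal 2, was 2.25 times the highest of them. No animal ranked highest in all 3 tissues.

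gli-1 was 3.43-fold higher in medial intestine (log2 difference 1.78, SE 0.23, interval 1.28 to 2.28, edgeR adjusted p = 4.16e-05) and 3.74-fold higher in lateral intestine (1.90, SE 0.23, interval 1.40 to 2.40, edgeR adjusted p = 2.68e-05). The ratio to the same animal's non-intestinal tissue was 2.41 to 4.01 in medial and 2.86 to 4.33 in lateral intestine. On the TPM scale the gap between the lowest intestinal and the highest non-intestine library narrowed to 1.09 times. There the log2 difference was 0.55 (limma adjusted p = 0.0595) and 0.75 (limma adjusted p = 0.0163), with a pseudocount of 0.5, and neither was called.

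RREB2 was the sparsest of the 4, with 46 to 253 counts per library. Its TMM-scaled CPM values were 5.70, 4.68, 4.87 and 9.49 in medial intestine, 5.71, 9.30, 9.29 and 10.7 in lateral intestine, and 2.72, 1.76, 2.44 and 1.55 outside the gut. The medial library of animal 4 stood well above the other 3 medial libraries, and the lateral library of animal 1 well below the other 3 lateral ones. The variation within groups, 36.3% in medial and 24.3% in lateral intestine, exceeded the counting errors of 9.55% and 7.24%.

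The RREB2 difference was 2.92-fold in medial intestine (log2 1.54, SE 0.40, interval 0.69 to 2.40, edgeR adjusted p = 0.00727) and 4.12-fold in lateral intestine (log2 2.04, SE 0.40, interval 1.18 to 2.91, edgeR adjusted p = 0.00143). With the animal as a block in the model, the medial value was 1.49 and was no longer called (edgeR adjusted p = 0.0263), and the lateral value of 2.02 was (edgeR adjusted p = 0.00677). The ratio to the same animal's non-intestinal tissue ran from 1.99 to 6.12 in medial and from 2.10 to 6.88 in lateral intestine, the highest in animal 4 both times. Leaving out any 1 animal ended the medial call, with values of 1.11 to 1.70, and leaving out animal 2, 3 or 4 ended the lateral call, with values of 1.78 to 2.06.

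med21 had the highest counts, 1895 to 3289 per library. In TMM-scaled CPM it measured 118, 108, 154 and 136 in medial intestine, 117, 107, 121.7 and 136 in lateral intestine, and 62.9, 48.0, 74.3 and 66.6 outside the gut. The lowest intestinal library was 1.44 times the highest non-intestine one, and animal 2 was the lowest of its group in all 3 tissues. Variation within the groups was 9.86% to 17.5%, against counting errors of 1.90% to 2.22%.

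med21 was 2.05-fold higher in medial intestine (log2 1.03, SE 0.17, interval 0.67 to 1.40, edgeR adjusted p = 0.00031). In lateral intestine it was 1.91-fold higher (log2 0.93, SE 0.17, interval 0.57 to 1.301, edgeR adjusted p = 0.0008), which lay under the required fold change of 2. Within animals, the ratio was 1.87 to 2.25 in medial and 1.64 to 2.23 in lateral intestine. Both values lie close to the fold threshold, so that the medial call was lost on leaving out animal 2 (0.94) or any 1 of 5 single libraries (0.87 to 0.95): medial 3, lateral 2 and non-intestine 1, 2 and 3.

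A transcript was called at an adjusted p under 0.01 and a fold change above 2. By this rule 4 of the 4 regulators were higher in medial intestine, where 12.8% of tested transcripts were, and 3 of 4 in lateral intestine, where 11.7% were. None was lower, against 11.5% and 8.75% of all transcripts. The median log2 difference of the 4 was 1.66 in medial and 1.97 in lateral intestine, beside -0.17 and -0.12 over all transcripts. Both comparisons use the same non-intestine libraries, so their likeness is not independent. The 4 had been listed as intestine-enriched from these libraries at like thresholds, so these counts and medians are no independent evidence.

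How large these differences were depended on how libraries of unlike composition were put on 1 scale. The 10 most abundant transcripts took 34.0% to 47.8% of the counts of an intestinal library and 23.2% to 31.5% of a non-intestine library. In TPM, the single transcript dd_Smed_v6_1_0_1 of 416 bases made up 23.4% to 36.6% of an intestinal library and 0.429% to 1.19% of a non-intestine library. The TMM factors were 0.765 to 0.985 in intestine and 1.21 to 1.496 outside, and the median log2 difference of all transcripts in medial intestine moved from -0.17 with these factors to -0.87 with plain library sizes and -1.15 in TPM.

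For med21 the direction itself depended on the scaling. Its medial log2 difference was 1.03 with TMM, 0.86 with relative log expression factors, 0.87 with upper quartile factors, 0.61 with the 10 most abundant transcripts left out of the library sizes, 0.32 with plain library sizes (interval -0.093 to 0.73) and -0.063 in TPM (interval -0.40 to 0.27), and the lateral difference of 0.93 became -0.071 in TPM. On that scale the medial libraries measured 63.6, 59.2, 74.0 and 69.5, the lateral libraries 64.5, 63.9, 64.0 and 71.9, and the non-intestine libraries 76.8, 52.2, 83.9 and 68.6. The 3 groups overlapped, and med21 was higher in intestine in 2 of 4 animals for either domain.

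nkx2.2 remained called under all 6 scalings, its log2 difference falling from 5.37 to 3.96 in medial and from 5.52 to 4.18 in lateral intestine. gli-1 was called under the 5 scalings of counts, down to 1.07 in medial and 1.24 in lateral intestine with plain library sizes. RREB2 reached the medial call only with TMM, and the lateral call with 4 of the 6. Set against the median transcript, the medial differences were steadier: 5.11 to 5.56 for nkx2.2, 1.70 to 1.95 for gli-1, 1.49 to 1.72 for RREB2 and 1.09 to 1.203 for med21. The share of transcripts with a smaller medial fold was 98.2% to 98.7%, 90.1% to 90.2%, 88.1% to 88.3% and 81.6% to 82.6% over the 6 scalings, in the same order of genes. A change of library scale shifts nearly all transcripts alike. Both sets of values were therefore largely fixed in advance, and do not show whether a gene is higher in gut.

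**Figure D2:**
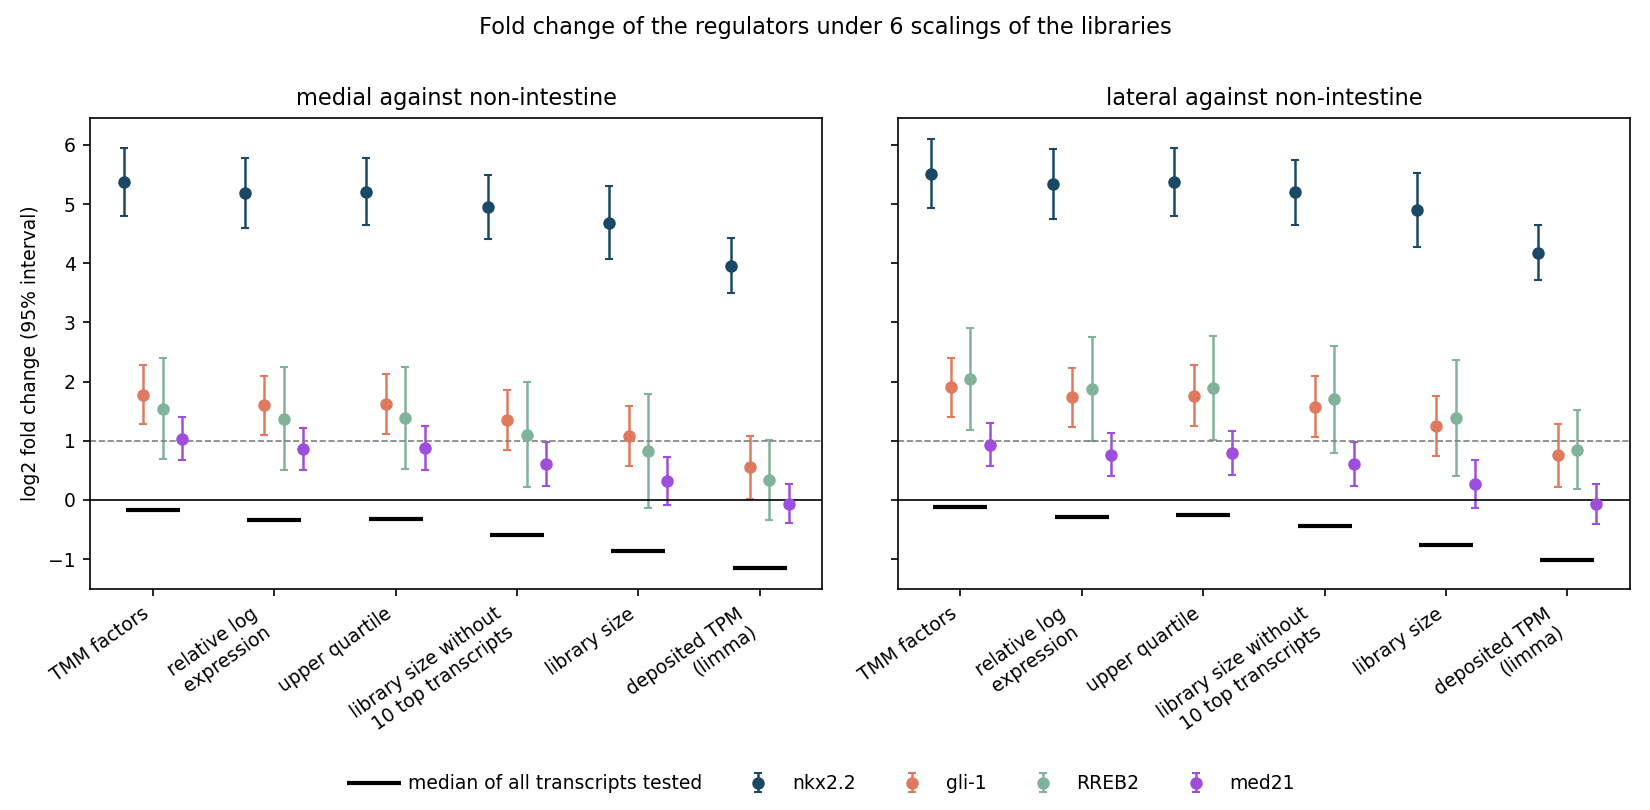
Log2 difference from non-intestine (points, with 95% intervals) of the 4 regulators under 6 scalings, for medial (left) and lateral (right) intestine. The black bars give the median of all 13136 transcripts and the dashed line the fold threshold of 2; med21 falls from 1.03 to -0.063 in medial intestine as the median falls from -0.17 to -1.15.

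Ratios of counts between the regulators of 1 library do not depend on its scaling, and were compared after the values above had been seen. The nkx2.2 to med21 ratio was 0.618 to 0.842 in medial, 0.710 to 0.993 in lateral and 0.0303 to 0.0486 in non-intestine libraries, a 20.7-fold and a 24.2-fold difference. The gli-1 to med21 ratio was 0.120 to 0.170, 0.122 to 0.195 and 0.0737 to 0.112 in the same order, 1.63-fold and 1.92-fold higher in intestine. Neither ratio overlapped between gut and non-gut.

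RREB2 to med21 was 0.0316 to 0.0699 in medial, 0.0488 to 0.0870 in lateral and 0.0233 to 0.0433 in non-intestine libraries. It stood apart from non-intestine in lateral tissue (2.14-fold) and overlapped in medial tissue (1.40-fold, exact two-sided permutation p = 0.229). gli-1 to RREB2 overlapped in both comparisons, with exact permutation p = 0.457 for medial and 0.657 for lateral intestine. Of the 12 ratios set against non-intestine, 9 did not overlap, each with an exact permutation p of 0.0286, the smallest that 4 against 4 libraries can give, and an adjusted p of 0.0571 over 18 tests. No ratio therefore passed 0.05 after adjustment. The ratios share the same 4 genes and the same non-intestine libraries, so the 9 are not separate results. The share of other transcript pairs that do not overlap was not computed, so the number 9 has nothing to be set against. These tests ignore that the tissues share animals; each of the 9 differed in the same direction in 4 of 4 animals, and the paired exact permutation p was 0.125, the smallest that 4 pairs can give.

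**Figure D3:**
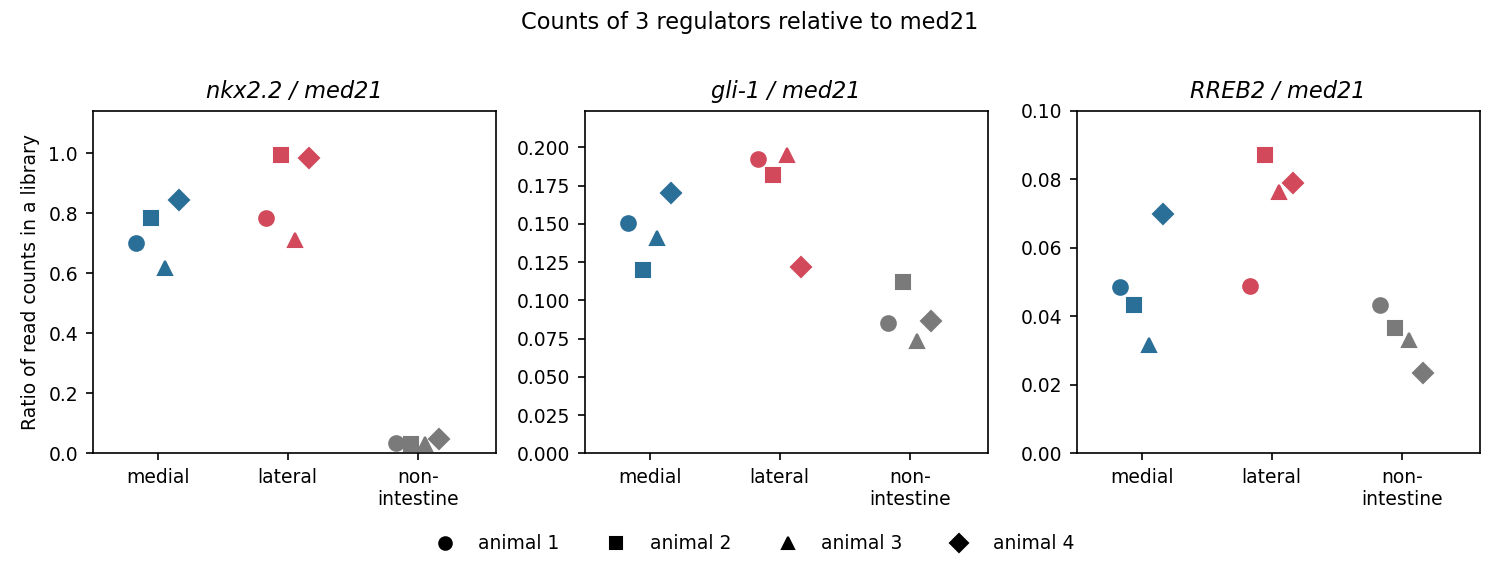
Ratio of the counts of nkx2.2, gli-1 and RREB2 to the count of med21 in the same library, by tissue, with symbols for the 4 animals. The nkx2.2 ratio is 0.618 or more in every intestinal library and 0.0486 or less outside, whereas the RREB2 ratio of medial and non-intestine libraries overlaps.

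The order of the 4 genes differed between tissues. In medial intestine the mean level was 66.6 ± 6.53 TPM for med21 (SD, n = 4), 35.3 ± 4.73 TPM for nkx2.2, 3.72 ± 0.761 TPM for gli-1 and 2.50 ± 0.892 TPM for RREB2. In lateral intestine the order was the same, with means of 66.0 ± 3.94, 41.5 ± 8.40, 4.33 ± 0.668 and 3.75 ± 0.907 TPM. In both, med21 and nkx2.2 were apart from each other and from the rest in TPM, while gli-1 and RREB2 overlapped. In TMM-scaled CPM this was reversed. There med21 and nkx2.2 overlapped (108 to 154 and 82.6 to 114 CPM in medial, 107 to 136 and 86.4 to 133 CPM in lateral intestine). gli-1 and RREB2 did not (13.0 to 23.1 and 4.68 to 9.49 CPM, then 16.5 to 23.7 and 5.71 to 10.7 CPM).

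Outside the gut med21 stood at 70.4 ± 13.6 TPM (SD, n = 4), followed by gli-1 at 2.34 ± 0.117, RREB2 at 1.87 ± 0.615 and nkx2.2 at 1.83 ± 0.497 TPM, and the last 3 overlapped. In TMM-scaled CPM gli-1 (5.34 to 5.76) lay above RREB2 (1.55 to 2.72) and nkx2.2 (1.52 to 3.24) there. nkx2.2 thus had the second highest mean of the 4 in intestine, and outside its range overlapped that of RREB2: its mean was below that of RREB2 in TPM and above it in TMM-scaled CPM (2.28 against 2.12 CPM). Ranked among all tested transcripts in TPM, it lay above 88.7% of them in medial and 89.6% in lateral intestine, but above 15.5% in non-intestine. med21 lay above 92.8%, 92.7% and 88.9%, gli-1 above 52.6%, 54.3% and 20.5%, and RREB2 above 45.3%, 51.3% and 15.9%. Since reads come from the 3′ end only, TPM divides by a length that the read number may not follow, and the intestinal order was the same in CPM.

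Medial and lateral intestine were then compared directly, the question being whether any regulator marks 1 domain. At an adjusted p under 0.01 and a fold above 1.5, 0 of the 4 were called with the quasi-likelihood test of edgeR, the likelihood ratio test or DESeq2, and 0 of the 4 had an unadjusted p under 0.05. Over all transcripts, 0.289% were called. The log2 difference, medial minus lateral, was -0.15 for nkx2.2 (95% interval -0.62 to 0.33), -0.12 for gli-1 (-0.61 to 0.36), -0.50 for RREB2 (-1.33 to 0.34) and 0.10 for med21 (-0.26 to 0.46).

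Against the threshold of 0.585 on the log2 scale, the med21 interval lay inside on both sides, those of nkx2.2 and gli-1 reached just past it towards lateral, and that of RREB2 reached far past it. RREB2 was lower in medial than in lateral tissue in 4 of 4 animals in TMM-scaled CPM, with ratios of 1.00, 0.50, 0.52 and 0.89, and in 3 of 4 with plain library sizes. Animal 1 showed practically no difference. The RREB2 to med21 ratio was also lower in medial than in lateral tissue in 4 of 4 animals (0.0485 against 0.0488, 0.0432 against 0.0870, 0.0316 against 0.0763 and 0.0699 against 0.0788). With the tissues paired by animal, the exact two-sided permutation p was 0.125, the smallest that 4 pairs can give, and without pairing it was 0.0571, adjusted 0.103.

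The goblet markers behaved otherwise in the same fit: 7 of 15 were called higher in medial and 4 of 15 higher in lateral intestine, from a log2 difference of 3.70 for cg7631 to -3.01 for nid2, while 0 of 9 basal and 0 of 3 phagocyte markers were called (at an unadjusted p under 0.05, 0 and 1 of them, and 0 and 0 with DESeq2 or the likelihood ratio test). The study picked these goblet markers with such differences in these libraries known, so their number is no independent evidence. Their summed level was higher in each lateral than in each medial library, as given above. That sum is weighted to abundant markers such as nid2 (1426 to 18132 CPM in intestine). The median log2 difference of the 15 markers was 1.22, towards medial, so the sum does not describe most of the list. The part of goblet cells in the RREB2 difference was not tested.

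**Figure D4:**
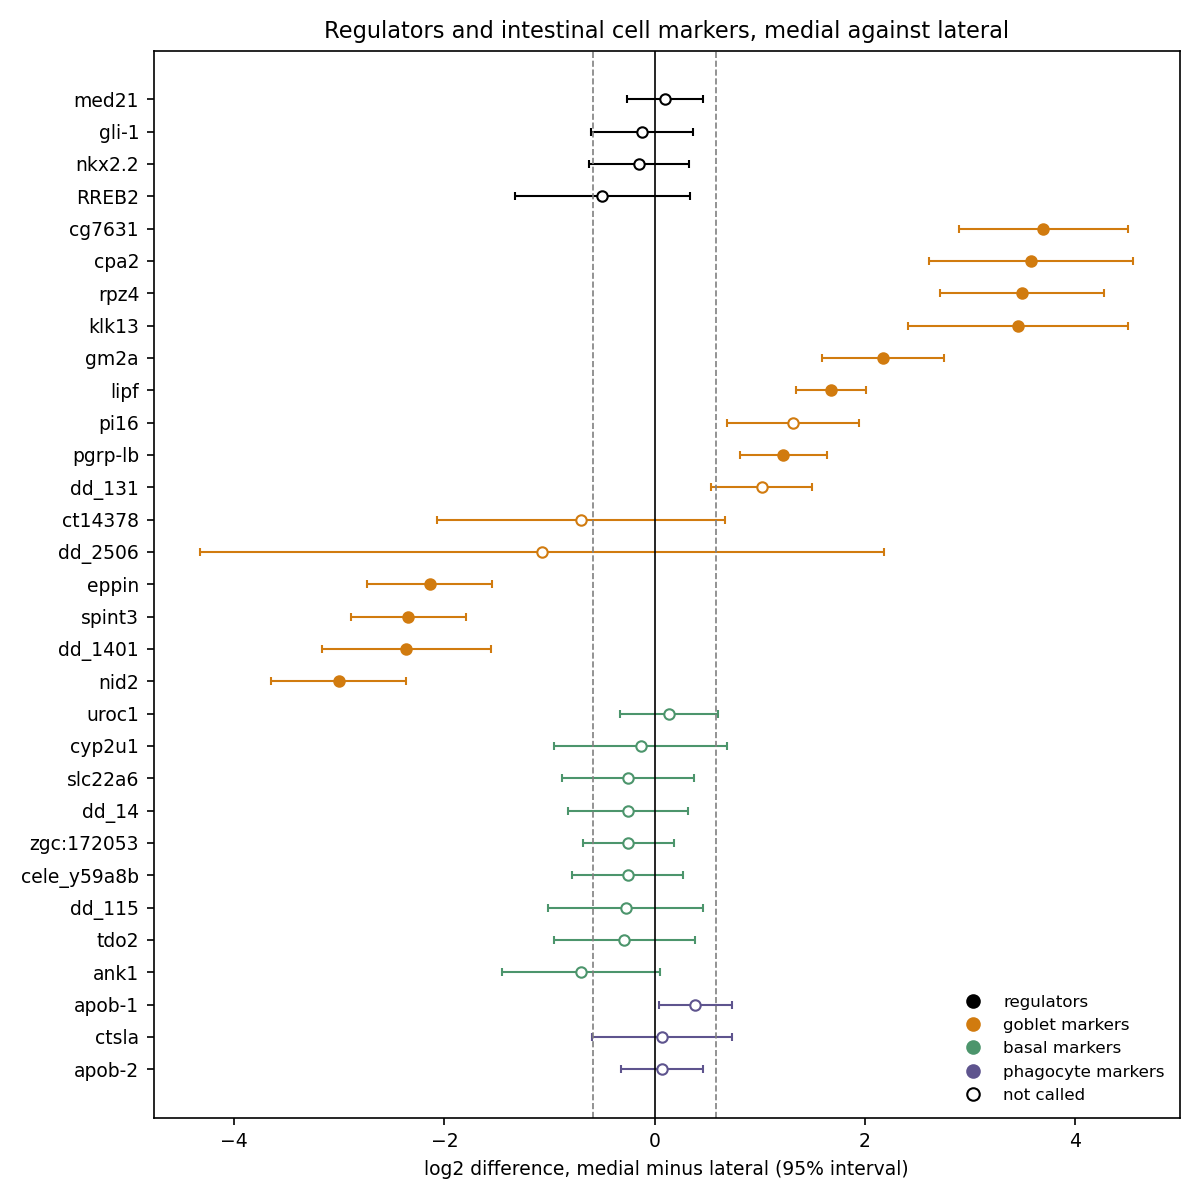
Log2 difference, medial minus lateral, with 95% intervals, for the 4 regulators (black) and the goblet, basal and phagocyte markers. Open circles are not called, and dashed lines mark a fold of 1.5 in either direction; the regulators lie between -0.50 and 0.10, the goblet markers between -3.01 and 3.70.

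The 4 genes are among 22 transcripts of intestine-enriched transcription factors and cofactors that the study took into its knockdown screen. That list was chosen on these libraries, so its direction is no independent evidence. LHX1, PTF1A, lhx2b and SIX6 reached 1 CPM in at most 1 non-intestine library, and OVOL1 in 3. All of these therefore passed the filter of 4 or more libraries only through the gut. In medial intestine 20 of the 22 were called higher and 0 lower, with a median log2 difference of 1.94, and in lateral intestine 19 were higher and 0 lower, with a median of 2.04. Of all transcripts tested, 12.8% were called higher in medial and 11.7% in lateral intestine. With plain library sizes the medial number fell to 13, and in TPM 6 were called in medial and 8 in lateral intestine. Of all 13136 transcripts, 954 were called higher in medial intestine with plain library sizes. In TPM 792 of them were called higher in medial and 805 in lateral intestine. OVOL1 (1.54) and ELF3 (1.67) were not called in medial intestine, nor were med21, CREB1 (0.93) and SIX6 (2.54) in lateral intestine.

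nkx2.2 had the second highest difference of the 22 in both domains, after the LIM homeobox factor LHX1 (7.19 in medial and 7.07 in lateral intestine). gli-1 ranked 13 and 15, RREB2 19 and 11, and med21 22 and 21. Between medial and lateral intestine 0 of the 22 passed with the quasi-likelihood test of edgeR, the likelihood ratio test or DESeq2, and 1, hnf-4, a nuclear receptor of gut and liver, had an unadjusted p under 0.05 (0.40, edgeR adjusted p = 0.300). Values ran from -0.95 for OVOL1 to 0.68 for SIX6.

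The study's screen recorded a goblet cell phenotype for 5 of the 22: RREB2, med21, gli-1, the basic helix-loop-helix factor PTF1A (4.24 in medial and 4.21 in lateral intestine) and the LIM homeobox factor lhx2b (4.31 and 4.50). The study described the loss as strong for RREB2, med21 and gli-1 and as modest for PTF1A and lhx2b. It proposed that the med21 role is not specific to goblet cells. The 5 are therefore not a uniform class. The median log2 difference of the 5 was 1.78 in medial and 2.04 in lateral intestine, beside 1.95 and 2.03 for the other 17. In medial intestine 5 of 5 and 15 of 17 were called, and in lateral intestine 4 of 5 and 15 of 17, beside 12.8% and 11.7% of all transcripts called higher. The 5 thus spanned the range of the list, from the lowest value in medial intestine (med21) to the third highest (lhx2b). PTF1A (0 to 0.741 CPM outside the gut) and lhx2b (0.289 to 0.863 CPM) passed the filter only through the gut. So did LHX1, SIX6 and OVOL1 among the 17. The medians, calls and ranks that include them are therefore a description with no test.

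**Figure D5:**
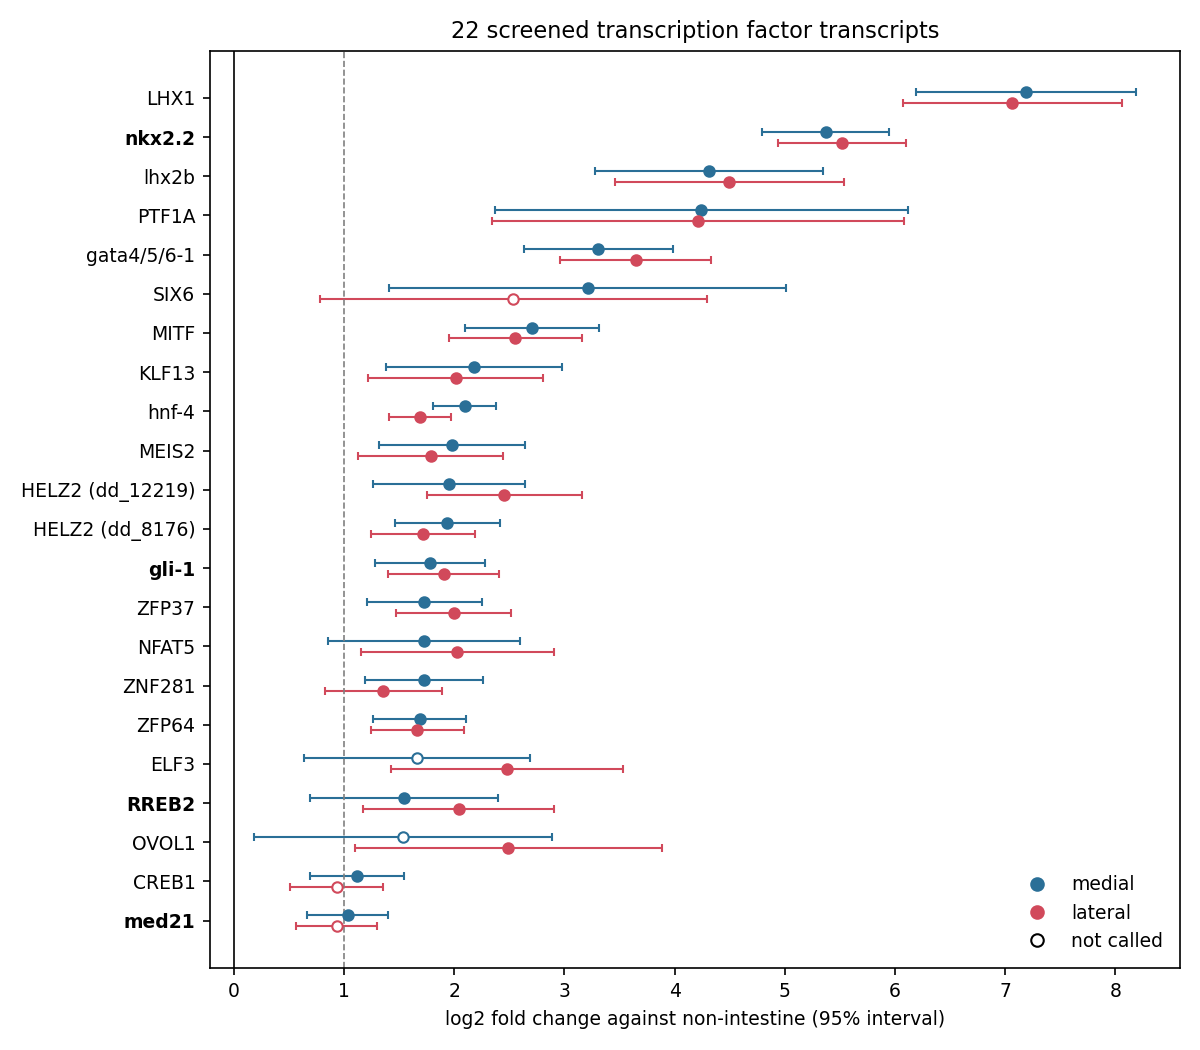
Log2 difference from non-intestine, with 95% intervals, of the 22 screened transcripts in medial (blue) and lateral (red) intestine, ordered by the medial value. Open circles are not called and the dashed line is the fold threshold of 2; nkx2.2 lies second from the top at 5.37 and 5.52, med21 at the foot at 1.03 and 0.93.

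Other genes of each regulator's family or pathway were taken from human matches in the part of the study's annotation that could be read, so the lists are incomplete. Of 26 further homeobox transcripts, the family of nkx2.2, 7 passed the filter on low counts. Each of the 7 reached 1 CPM in all 4 non-intestine libraries and in at most 2 of the 8 intestinal ones, so it passed only through the tissue where it was high, and the values below are a description with no test. TLX2, a factor of the developing nervous system in mammals, measured 3.02 to 3.38 TMM-scaled CPM outside the gut and 0 to 0.170 CPM in intestine. UNCX measured 0.815 to 3.67 CPM outside and 0 to 0.464 CPM in intestine, and NKX6-1 1.23 to 2.63 CPM outside and 0 to 1.06 CPM in intestine. All 4 regulators, by contrast, passed through the intestinal libraries and the non-intestine libraries alike.

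Of 5 transcripts of the Hedgehog pathway, in which gli-1 acts, 1 was called. Of all tested transcripts, 12.8% were called higher and 11.5% lower in medial intestine, and 11.7% and 8.75% in lateral intestine. A count of 1 in 5 is therefore no result about the pathway. PRKACA, the catalytic subunit of the protein kinase A that restrains Gli proteins, was lower by both comparisons (log2 -2.54 in medial and -2.46 in lateral intestine, edgeR adjusted p = 0.00209 and 0.00292). SUFU, which binds and holds back Gli, measured 0.78 and 0.32, and HHAT, which attaches a lipid to Hedgehog ligands, 1.504 and 1.47 (edgeR adjusted p = 0.0487 and 0.0598). The kinases STK36 (0.29 and 0.18) and CSNK1A1 (0.042 and 0.16) were close to 0. The list's median was 0.29 in medial and 0.18 in lateral intestine.

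Of 6 transcripts of Mediator or RNA polymerase II function, 0 passed with the quasi-likelihood test of edgeR, the likelihood ratio test or DESeq2, and 0 had an unadjusted p under 0.05 in either domain. So short a list cannot be told apart from the shares of all transcripts given above. The Mediator subunits MED31 (-0.13 in medial and 0.39 in lateral intestine) and MED12L (-2.11 and 0.72) had intervals of several log2 units at low counts, and MED12L reached 1 CPM in 3 of the 8 intestinal libraries. The median of the 6 was -0.46 in medial and -0.051 in lateral intestine. Of 5 transcripts of Ras signalling, read beside RREB2, 4 were tested. EGFR, a receptor upstream of Ras, and RASGRF1, an exchange factor for Ras, passed the filter only through the non-intestine libraries, and are given with no test: RASGRF1 measured 0.978 to 4.05 TMM-scaled CPM outside the gut and 0 to 0.329 CPM in intestine, and EGFR 4.78 to 6.99 CPM and 0 to 2.29 CPM. BRAF, a kinase downstream of Ras, differed by 1.33 in medial and 0.12 in lateral intestine on the log2 scale, and SHOC2, a scaffold of the Ras to Raf step, by -0.052 and 0.52, and neither was called.

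The transcripts whose levels followed each regulator most closely were ranked by Pearson's r of log2 TMM-scaled CPM over the 12 libraries, as a description. The tissues form separate clusters and each r mostly reflects the gap between gut and non-gut, on the same libraries and scaling. For nkx2.2 the nearest were dd_Smed_v6_1769_0_1 (r = 0.997), dd_Smed_v6_9371_0_1 (0.997) and dd_Smed_v6_391_0_1 (0.996). For gli-1 they were dd_Smed_v6_2174_0_1 (0.990), dd_Smed_v6_2879_0_1 (0.990) and dd_Smed_v6_3071_0_1 (0.987).

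For RREB2 the nearest were dd_Smed_v6_4529_0_1 (0.961), dd_Smed_v6_776_0_1 (0.961) and dd_Smed_v6_8385_0_1 (0.958), and for med21 dd_Smed_v6_1599_0_1 (0.984), dd_Smed_v6_1165_0_1 (0.980) and dd_Smed_v6_1757_0_1 (0.977). High values were common: 1204 transcripts exceeded 0.9 with nkx2.2, 1063 with gli-1, 283 with RREB2 and 712 with med21. Among the 4 regulators r ranged from 0.852 (RREB2 and med21) to 0.963 (nkx2.2 and gli-1).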

How the data were processed

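Per the labels, 12 libraries of 4 animals were made from 20 µm sections of methacarn-fixed planarians after laser capture, and sequenced from the 3′ end. Per the submitters' processing notes and the study's methods, reads were checked with FastQC, trimmed, mapped to the dd_Smed_v6 transcriptome with Bowtie2 2.3.1 and SAMtools 1.3, and analysed in edgeR 3.8.6. The authors deposited raw read counts per transcript with its length and, for 13136 transcripts, CPM of TMM-adjusted library sizes (a normalised signal), RPKM and TPM. Recomputed CPM and RPKM matched the deposited columns (median ratio 1.00). The authors' own comparison columns (log2 fold changes, statistics and p-values) were not used, and 0 columns belonged to other samples.

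Counts were fitted with edgeR 4.0.16 in R 4.3.3 (quasi-likelihood test, 1 term per tissue, all 12 libraries), after TMM scaling and a filter that kept transcripts reaching 1 CPM in 4 or more libraries. P-values were adjusted by Benjamini-Hochberg over 13136 transcripts. Calls needed adjusted p under 0.01 and a fold above 2 (1.5 between domains). SEs were derived from the F statistic and intervals are 95%. The common biological coefficient of variation was 0.626. The intervals of the fits include the variation between libraries of a tissue, whereas the counting errors set beside the variation cover counting alone. log2 CPM used a prior count of 2. Ratios between regulators were tested by exact permutation. The fit was tested on simulated data.

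Replicate numbers mark the same animal, so pairing comes from the labels' design. Deviations from the tissue means correlated weakly within animals (r from -0.0096 to 0.16). Alternatives were other scalings, no filter, DESeq2 1.42.0, the likelihood ratio test, glmTreat, only the tissues compared, an animal block, leaving out animals or libraries and, chosen after seeing the data, limma 3.58.1 on TPM (pseudocount 0.5) and library sizes without the 10 most abundant transcripts. The 4 regulators and all lists were chosen with earlier results of these data known. Named genes are the 4 regulators, the called and extreme transcripts of the fixed lists, the markers, and the 3 nearest transcripts per regulator. Python 3.11.15 was used for summaries.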

Additional observations from a re-analysis of the deposited data

Results flagged for a closer look

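Goblet markers differed between the medial and the lateral domain by a direct test: 11 of 15 were called, with log2 differences from -3.01 to 3.70, whereas 0 of the 4 regulators were. Of all transcripts tested, 0.289% were called. The study picked these markers with such differences in these libraries known, so the count of 11 is no independent evidence. Of 66 groups of 4 libraries examined for a single outlying library (Dixon's criterion), 0 had one, where chance would give about 3.3.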

How the results depend on the processing

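Over 27 alternative settings (25 planned, 2 chosen after seeing the data), 324 values of the 4 regulators were recomputed: 278 kept their direction and their side of the threshold, 43 kept the direction but lost the call, and 3 reversed: med21 on TPM in medial (-0.063) and lateral intestine (-0.071), the latter not called in either case, and gli-1 between the domains without medial replicate 2 (not called in either case; leaving out 1 animal or library gave -0.33 to 0.020). nkx2.2 kept its calls in all 27, and the calls of gli-1 were lost only on TPM (0.55 medial, 0.75 lateral). RREB2 in medial intestine was lost with no TMM factors (0.83), relative log expression (1.38) or upper quartile factors (1.38), no filter (1.49), glmTreat (1.54), only both tissues fitted (1.497), the animal block (1.49), without the 10 top transcripts (1.10) and on TPM (0.33), and in lateral intestine with no TMM factors (1.38), glmTreat (2.04) and TPM (0.85). The medial call of med21 was lost with no TMM factors (0.32), relative log expression (0.86), upper quartile factors (0.87), no filter (0.98), glmTreat (1.03), only both tissues (1.00), DESeq2 (0.86), and without the 10 top transcripts (0.61). The causes were not tested.

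Leaving out 1 animal or library gave 1.11 to 1.70 for RREB2 in medial intestine, where the call was lost without medial 1 or 4, lateral 2 or 3, or any non-intestine library, 1.78 to 2.32 for RREB2 in lateral intestine, and 0.87 to 1.11 for med21 in medial intestine. Pairing by animal (the replicate block) changed no other call of the 4. The number of transcripts called in medial intestine, 3187, became 2053 with glmTreat, 7007 on TPM and 2001 to 3344 on leaving out (under 1/1.5 of it without animal 1 or 3), and in lateral intestine 2692 became 1706, 6171 and 1635 to 2982 (animal 1 or 3). Between the domains 38 became 175 with the likelihood ratio test, 169 with DESeq2 and 12 to 34 on leaving out. The share of higher calls was 52.6% in medial and 57.3% in lateral intestine, 25.1% and 29.6% with no TMM factors, 35.5% and 43.8% without the 10 top transcripts, 41.7% and 46.4% with DESeq2, and 11.3% and 13.0% on TPM.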
